A study of Mus musculus with 4 samples.

Results

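The genes described here encode proteins that build ribosomes: the core proteins of small nucleolar ribonucleoprotein particles (snoRNPs), RNA polymerase I and its initiation factor, nucleolar proteins, processing factors of both ribosomal subunits, and the transcription factor Myc. Members were taken from a list of 45 gene symbols, each read at the probe set whose annotation gives that symbol alone, and for genes with several such probe sets at the one with the highest mean log2 intensity over the 4 arrays. Of the 45, 43 had such a probe set, out of 22180 genes on the array. Fbl, the box C/D methyltransferase, and Tsr1, a late small subunit factor, were measured only by probe sets shared with another gene and are not analysed here. The list was drawn up with results of these arrays known, so its counts describe these genes and do not stand as independent support for a direction. The mean intensity that chose among probe sets used both groups alike.

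The 4 arrays held RNA of regulatory T cells (Treg), a suppressive class of CD4 T cells defined by Foxp3. In the anti-DR3 group (n = 2) the mice had received an agonistic antibody against death receptor 3, a costimulatory receptor of the tumour necrosis factor receptor superfamily. In the control group (n = 2) they had received a control antibody. All mice were of the strain Foxp3Luci-DTR-4 on the B6 Albino background, the antibody was given into the peritoneum, and cells positive for CD4 and the Foxp3 green fluorescent reporter were sorted 4 days later. The labels give neither the organ nor the age, and since no label states that each replicate was a different mouse, the p-values cover array-to-array spread alone, which may be technical.

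Ribosomes are assembled in the nucleolus. RNA polymerase I transcribes the long ribosomal RNA precursor, small nucleolar RNAs (snoRNAs) of the box C/D class guide methylation of its riboses and those of the box H/ACA class guide pseudouridine formation, and large sets of processing factors fold and cut it into the parts of the small and the large subunit. Many snoRNAs lie in introns of genes for ribosomal or nucleolar proteins and are released from the spliced intron. Myc is known to drive transcription of many ribosome biogenesis genes in growing lymphocytes, often through the E-box CACGTG, which it binds together with Max.

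After anti-DR3, 4 of the 43 measured genes fell and 0 rose at an adjusted p under 0.05 in limma (the linear-model test used throughout, with Benjamini-Hochberg adjustment over 12114 genes). They were the box C/D core genes Nop56 and Nop58 and the nucleolar genes Gnl3 and Mybbp1a, each to between 72.1% and 74.1% of the control level. Over all genes tested, 1.47% were called lower and 4.49% higher (5.96% in either direction). Of the 43 genes, 35 (81.4%) had a difference below 0, against 47.6% of all genes tested, and the median log2 difference (anti-DR3 minus control antibody) was -0.15, against 0.01. In 24 of the 43 both anti-DR3 arrays lay below both control arrays, where 24.6% of all genes tested did so, and in 3 both lay above, where 31.6% of all genes did. At an unadjusted p under 0.05, 16 were lower and 0 higher, where 9.57% and 16.6% of all genes were. All 43 were above the median of all probe sets on all 4 arrays, so the filter on dim genes removed none of them.

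The 4 calls lay close to the threshold, and leaving out any 1 array ended all of them in limma. Without anti-DR3 replicate 1, 0 of the 43 passed (smallest adjusted p = 0.12, 11 lower and 0 higher at an unadjusted p under 0.05, as were 2234 of all genes in either direction), where 0.0165% of all genes were called lower and 0.256% higher. Dropping anti-DR3 replicate 2 gave 0 (smallest adjusted p = 0.189; unadjusted 10 lower and 1 higher, Ebna1bp2) and no call among all genes (1967 at an unadjusted p under 0.05). Dropping control antibody replicate 1 gave 0 (0.117; unadjusted 12 lower and 1 higher, Snu13, and 2708 of all genes), against 0.0578% of all genes lower and 0.735% higher. Dropping control antibody replicate 2 gave 0 (0.0627; unadjusted 16 lower and 0 higher, and 2746 of all genes), against 0.553% lower and 2.02% higher. The exact permutation test of a single gene, 2 arrays against 2, cannot go below p = 0.333.

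Other settings moved the count in both directions, with 0 of the 43 genes higher in each. Aligning the arrays at the median of tested genes gave 7 lower, where 2.01% of all genes were lower and 2.87% higher. The stricter filter on dim genes gave 10 lower of 38 tested (4.2% and 12.1% of all genes), and a trended robust prior gave 11 (2.99% and 8.93%). A threshold of 0.10 gave 10 (4.28% and 9.67%), and the mean of all probe sets of a gene gave 4 (1.42% and 4.35%). With no filter on dim genes 0 were lower (0% and 0.0631% of all genes), and a term for the replicate number also gave 0 (1.1% and 3.55%).

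The promoter windows of the 4 genes that fell are shown because these are the calls the account turns on. They are RefSeq sequences of build GRCm38.p6, running from 250 bases before to 50 bases after the annotated gene start, in the direction of transcription, with any E-box in capitals. The Nop56 window lies at chr2:130274162-130274461 on the plus strand, the Nop58 window at chr1:59684756-59685055 on the plus strand, the Gnl3 window at chr14:31019082-31019381 on the minus strand, and the Mybbp1a window at chr11:72441077-72441376 on the plus strand.
Nop56: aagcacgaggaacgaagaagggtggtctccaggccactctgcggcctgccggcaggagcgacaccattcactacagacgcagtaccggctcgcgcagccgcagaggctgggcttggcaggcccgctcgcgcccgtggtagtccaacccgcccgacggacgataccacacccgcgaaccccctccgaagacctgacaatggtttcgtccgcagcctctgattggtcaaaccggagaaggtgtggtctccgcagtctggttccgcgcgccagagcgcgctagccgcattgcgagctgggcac
Nop58: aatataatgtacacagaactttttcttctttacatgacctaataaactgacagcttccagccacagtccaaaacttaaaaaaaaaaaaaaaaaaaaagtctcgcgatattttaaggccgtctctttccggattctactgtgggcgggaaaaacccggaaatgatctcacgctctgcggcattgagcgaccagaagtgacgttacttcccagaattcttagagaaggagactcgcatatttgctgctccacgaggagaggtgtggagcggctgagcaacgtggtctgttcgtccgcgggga
Gnl3: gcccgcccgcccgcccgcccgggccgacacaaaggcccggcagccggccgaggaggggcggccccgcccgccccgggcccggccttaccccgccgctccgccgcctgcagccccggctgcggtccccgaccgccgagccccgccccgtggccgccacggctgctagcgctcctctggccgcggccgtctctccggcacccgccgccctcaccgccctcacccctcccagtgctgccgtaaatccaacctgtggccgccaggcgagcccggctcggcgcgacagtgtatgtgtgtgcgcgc
Mybbp1a: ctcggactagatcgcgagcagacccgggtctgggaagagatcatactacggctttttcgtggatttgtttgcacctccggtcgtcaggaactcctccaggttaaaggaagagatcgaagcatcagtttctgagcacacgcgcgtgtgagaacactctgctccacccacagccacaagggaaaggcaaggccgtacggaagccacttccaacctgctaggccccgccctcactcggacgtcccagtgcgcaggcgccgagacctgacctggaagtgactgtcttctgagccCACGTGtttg
The Mybbp1a window alone held an E-box, which began 41 bases after the gene start. The share of G and C was 66% in the Nop56 window, 45.3% in that of Nop58, 80.3% in that of Gnl3 and 58% in that of Mybbp1a.

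**Figure D1:**
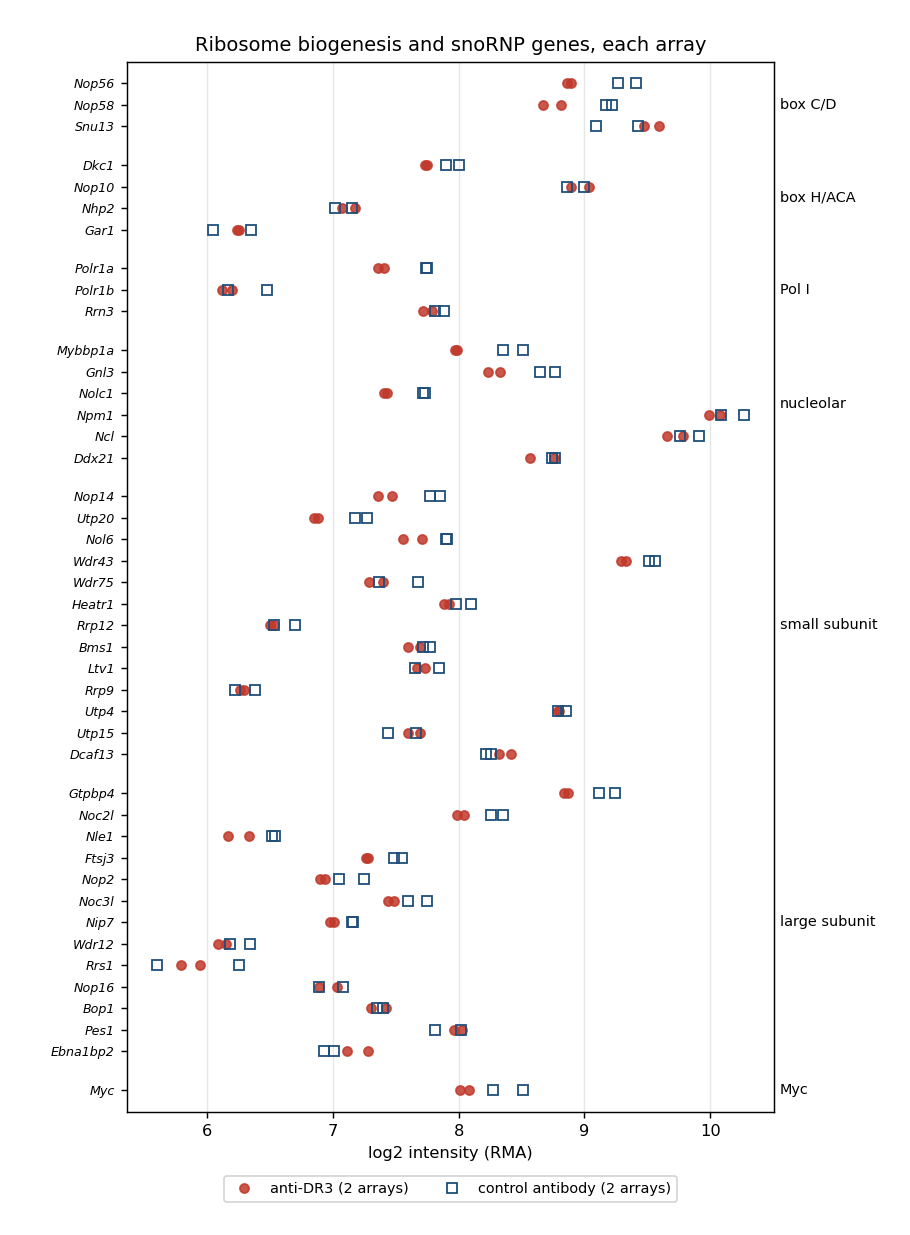
Log2 intensity (horizontal axis) of each of the 43 measured genes on each of the 4 arrays, grouped by role. Filled red circles are the 2 anti-DR3 arrays and open blue squares the 2 control antibody arrays. Circles lie left of both squares in 24 genes and right of both in 3.

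The box C/D particle is built on Snu13, which binds the kink-turn of the snoRNA, and on the paired scaffold proteins Nop56 and Nop58. Nop56 had log2 intensities of 8.89 and 8.86 after anti-DR3, against 9.41 and 9.27 after control antibody. The groups were 0.39 apart at their closest, more than the 0.031 and 0.14 between replicates of the anti-DR3 and the control group. Nop56 fell by 0.47 ± 0.087 (SE, n = 2 arrays per group; limma adjusted p = 0.0389), and both of its other probe sets gave differences of the same sign, -0.63 and -0.48, also without overlap. Nop58 had 8.81 and 8.67 after anti-DR3, against 9.22 and 9.17 after control antibody, again without overlap. It fell by 0.45 ± 0.088 (limma adjusted p = 0.0441).

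Snu13 stood apart from its partners. It had 9.47 and 9.59 after anti-DR3, against 9.43 and 9.09 after control antibody, so both anti-DR3 arrays lay above both control arrays, 1 of them by little. Its difference was 0.27 ± 0.13 (limma adjusted p = 0.249, interval -0.04 to 0.59 at 95% confidence). A second probe set of Snu13 gave -0.12 with overlapping groups, so the sign of Snu13 depends on the probe set.

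The box H/ACA particle, which also stabilizes telomerase RNA, holds the pseudouridine synthase dyskerin (Dkc1) with Nhp2, Nop10 and Gar1. Of these 4 genes 0 passed the threshold in limma, and 1, Dkc1, had an unadjusted p under 0.05. Dkc1 had 7.75 and 7.73 after anti-DR3, against 8.0 and 7.90 after control antibody. Both anti-DR3 arrays were lower, and the difference was -0.21 ± 0.082 (limma adjusted p = 0.171). Nhp2 had 7.07 and 7.18 after anti-DR3, against 7.15 and 7.02. Nop10, the smallest core protein, had 8.89 and 9.04 after anti-DR3, against 9.0 and 8.86. Gar1, which helps to release the product, had 6.24 and 6.25 after anti-DR3, against 6.05 and 6.35. The groups overlapped for these 3 genes, with differences of 0.04, 0.04 and 0.05, which turned to -0.019, -0.024 and -0.012 when arrays were aligned at the median of tested genes. Their 95% intervals ran from -0.24 at the lowest to 0.33 at the highest, so the arrays do not exclude changes of that size. Terc, the telomerase RNA, which carries an H/ACA domain, had 8.02 and 8.10 after anti-DR3, against 8.17 and 7.93 after control antibody, a difference of 0.01 ± 0.11 (limma adjusted p = 0.957).

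Set side by side, the median difference was -0.45 over 3 box C/D genes and 0.04 over 4 box H/ACA genes. These medians rest on few genes and the difference between the classes was not tested. Box C/D gave 2 calls and box H/ACA 0.

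Among the polymerase I genes, 0 of 3 passed in limma and 1 had an unadjusted p under 0.05. Polr1a, the largest catalytic subunit, had 7.41 and 7.36 after anti-DR3, against 7.75 and 7.74 after control antibody. Replicates differed by 0.055 and 0.012 while the groups were 0.33 apart at their closest, and the difference of -0.36 ± 0.078 had a limma adjusted p of 0.0534. Polr1b, the second catalytic subunit, had 6.12 and 6.20 after anti-DR3, against 6.48 and 6.17 after control antibody, with overlap and a difference of -0.16 ± 0.12. Rrn3, the factor that makes the polymerase competent to initiate, had 7.79 and 7.72 after anti-DR3, against 7.81 and 7.88. Its difference was -0.09 ± 0.081 (limma adjusted p = 0.549).

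Nolc1, Ncl, Npm1, Gnl3, Ddx21 and Mybbp1a encode abundant nucleolar proteins, and all 6 had differences below 0, with a median of -0.23. Of them 2 fell (1.47% of all genes tested did) and 3 were lower at an unadjusted p under 0.05 (9.57% of all genes). In 4 both anti-DR3 arrays lay below both control arrays, as in 24.6% of all genes. Mybbp1a, which binds Myb and p53 and takes part in precursor processing, had 7.97 and 7.99 after anti-DR3, against 8.51 and 8.35 after control antibody. It fell by 0.45 ± 0.090 (limma adjusted p = 0.0455). Gnl3 (nucleostemin), a nucleolar GTPase of proliferating and stem cells, had 8.23 and 8.33 after anti-DR3, against 8.77 and 8.65 after control antibody. It fell by 0.43 ± 0.088 (limma adjusted p = 0.049), and for both genes every anti-DR3 array was below every control array.

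Nolc1, a chaperone that shuttles snoRNPs through Cajal bodies and the nucleolus, had 7.43 and 7.41 after anti-DR3, against 7.72 and 7.73 after control antibody. Its replicates were within 0.02 of each other, and the difference of -0.30 ± 0.077 had a limma adjusted p of 0.0765. The histone chaperones and ribosome assembly proteins nucleolin (Ncl) and nucleophosmin (Npm1) differed by -0.11 and -0.15, and a second probe set of Npm1 gave -0.13. Ddx21, a helicase that links polymerase I transcription to processing, had 8.76 and 8.57 after anti-DR3, against 8.77 and 8.74 after control antibody. That difference of -0.09 was the smallest in size of the 6, and a dimmer probe set of Ddx21 gave -0.33 without overlap.

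Of 13 measured small subunit factors 0 passed in limma and 4 had an unadjusted p under 0.05, all lower (9.57% of all genes). The groups did not overlap in 7. Of these, 6 were lower (46.15% of the 13, against 24.6% of all genes tested) and 1 was higher (31.6% of all genes). The median difference was -0.10. Nop14, a scaffold of the small subunit processome, had 7.47 and 7.36 after anti-DR3, against 7.77 and 7.85 after control antibody, the lowest difference of this group at -0.39 ± 0.086 (limma adjusted p = 0.0566). Utp20, a very large processome protein, differed by -0.36 ± 0.081 (limma adjusted p = 0.0622), with 6.88 and 6.85 after anti-DR3, against 7.27 and 7.18. Nol6 and Wdr43 differed by -0.27 and -0.22 and also did not overlap.

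Most of the remaining small subunit genes lay nearer to 0. Wdr43, Wdr75, Heatr1, Utp4 and Utp15 belong to the subcomplex that joins the precursor first and is needed for its transcription, and their differences were -0.22, -0.18, -0.14, -0.02 and 0.09. Bms1, a GTPase, and Rrp12, an export factor, both differed by -0.10. Rrp9, a protein of the U3 particle, Ltv1, a late assembly factor, and Dcaf13, a processome protein, differed by -0.03, -0.04 and 0.13. Dcaf13 had 8.42 and 8.32 after anti-DR3, against 8.22 and 8.26 after control antibody, the highest difference of the group and the one gene in it whose anti-DR3 arrays were both above the controls.

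Of 13 large subunit factors 0 passed in limma and 4 had an unadjusted p under 0.05, all lower (9.57% of all genes). The groups did not overlap in 9. Of these, 8 were lower (61.54% of the 13, against 24.6% of all genes tested) and 1 was higher (31.6% of all genes). The median difference was -0.16. Gtpbp4, a nucleolar GTPase, had 8.84 and 8.87 after anti-DR3, against 9.24 and 9.12 after control antibody, the lowest difference of this group at -0.32 ± 0.085 (limma adjusted p = 0.0817). Noc2l and Noc3l, partners in moving the precursor particle out of the nucleolus, differed by -0.29 and -0.21, and Nle1 and Ftsj3, a late assembly factor and an RNA methyltransferase, by -0.28 and -0.25. All 5 were without overlap.

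Nop2, a methyltransferase, Nip7, a processing factor, and the 3 genes of the PeBoW complex (Pes1, Bop1 and Wdr12) completed the range. Nop2 differed by -0.23 and Nip7 by -0.16, while Wdr12, Bop1 and Pes1 had -0.14, -0.02 and 0.07. Nop16 differed by -0.03. Rrs1 had the widest error of all members, -0.06 ± 0.21, and its control arrays stood at 5.60 and 6.25, either side of 5.79 and 5.94 after anti-DR3. Ebna1bp2, whose yeast homologue binds that of Rrs1, had 7.28 and 7.11 after anti-DR3, against 6.93 and 7.01 after control antibody. Its difference of 0.22 ± 0.093 was the highest of the group (limma adjusted p = 0.202).

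**Figure D2:**
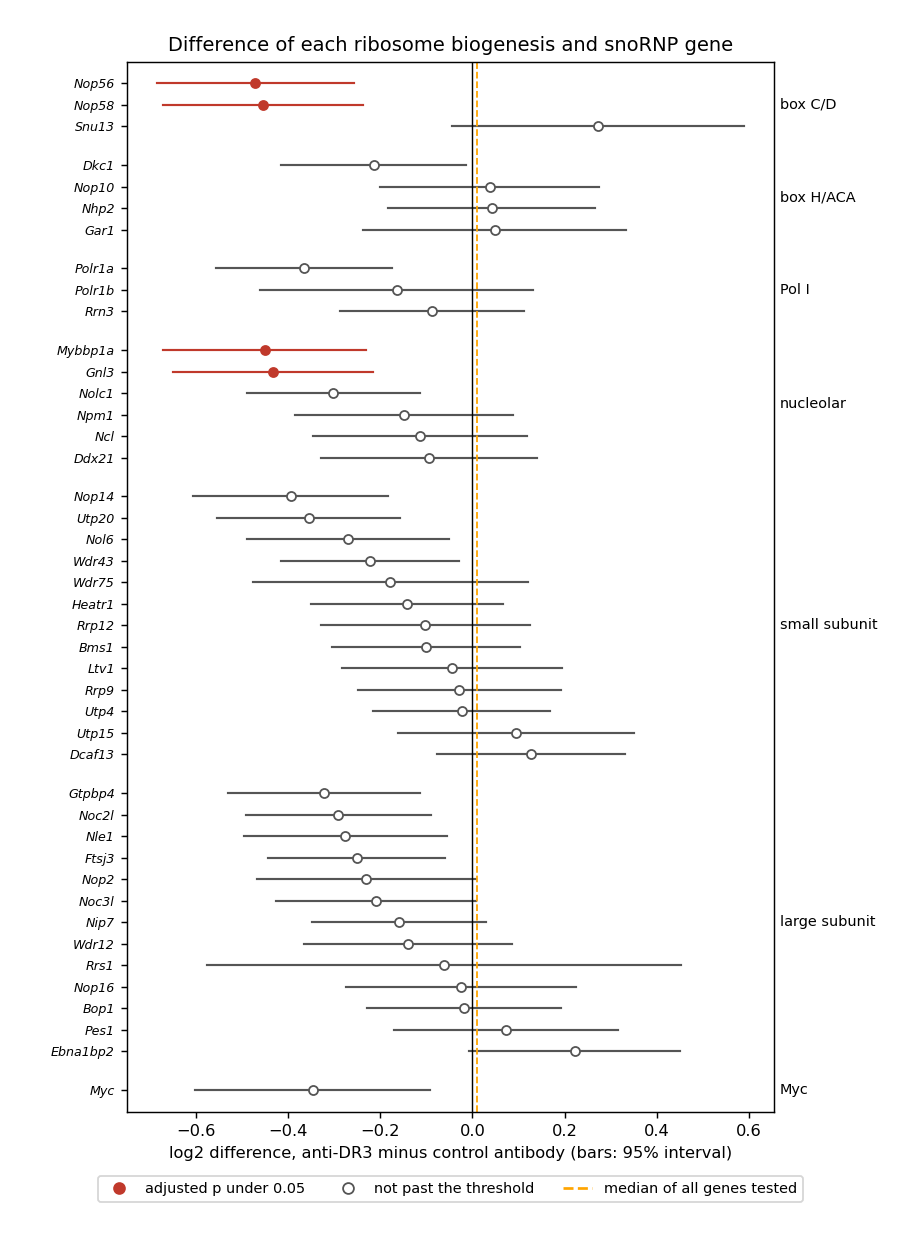
Log2 difference of each measured gene, anti-DR3 minus control antibody (horizontal axis), with its 95% interval from limma, grouped by role. Filled red points are the 4 genes past an adjusted p of 0.05 (Nop56, Nop58, Mybbp1a, Gnl3), open points the other 39, and the dashed line is the median of all genes tested (0.01).

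Myc had log2 intensities of 8.08 and 8.01 after anti-DR3, against 8.51 and 8.27 after control antibody. Both anti-DR3 arrays were lower by 0.19 or more, and the difference of -0.35 ± 0.10 had a limma adjusted p of 0.107. Of its 11 partner and antagonist genes 9 were bright enough to be tested and 0 passed in limma, though 1 had an unadjusted p under 0.05. That gene was Mga, a Max partner and repressor, at -0.44 ± 0.095 (limma adjusted p = 0.0539), and the other 8 had differences above 0 (list median 0.11).

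RefSeq promoter windows were listed for 37 of the 45 genes. The E-box CACGTG, which reads the same on both strands, was present in 10 of them (27%), against 8.09% of all genes with a window. Among genes tested, it was present in 9 of 36 members (25%), against 11.5% of all that had a window. The 10 were Nop2, Utp4, Ltv1, Utp20, Pes1, Mybbp1a, Tsr1, Nle1, Rrn3 and Wdr43, and Rrn3 held a pair of them. In 8 the E-box began within the 50 bases after the gene start, at 3 to 41 bases from it. Of the 11 E-boxes in these windows 72.7% lay after the start, against 13% of those in windows of the genes tested. The 8 sites after the start are shown with 12 bases before and 4 after, E-box in capitals, to let the surroundings be compared.
Pes1: ccctaggcagggCACGTGcggg
Utp4: tgcgcaagcgcgCACGTGgggc
Wdr43: cgcccgggcgaaCACGTGgctg
Nle1: tcggttctcctcCACGTGggga
Tsr1: tcacttggtgcaCACGTGgact
Ltv1: gccctgtggaccCACGTGtgga
Utp20: cggcactaactaCACGTGagga
Mybbp1a: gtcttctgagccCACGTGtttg
The windows lie at chr11:3963725-3964024 (plus strand) for Pes1, chr8:106893390-106893689 (plus) for Utp4, chr17:71615965-71616264 (plus) for Wdr43 and chr11:82908346-82908645 (minus) for Nle1. They lie at chr11:74897830-74898129 (plus) for Tsr1, chr10:13193088-13193387 (minus) for Ltv1 and chr10:88826765-88827064 (minus) for Utp20.

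The 9 measured genes with an E-box had a median difference of -0.22 (from -0.45 to 0.07, with 1 call), and the 27 measured genes whose window held none had -0.16 (from -0.47 to 0.27, with 3 calls). The ranges overlapped over most of their length. Other motifs were searched on both strands. The ETS core CCGGAAG was in 38.9% of the 36 tested members with a window, against 19.4% of genes tested, and the GC box GGGCGG in 75%, against 66.1%. The NRF1 palindrome and a second palindrome with CGCG at its centre were in 0 of 36, against 2.31% and 1.07% of genes tested. A match describes letters in this window and not a bound site.

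Members also differed in whether snoRNA genes lie within them. The RefSeq gene table places 19 snoRNA genes within 7 of the genes by coordinates (that table gives no strand), and 10 of these had a probe set of their own. Of the 6 measured hosts (Nop56, Nop58, Gnl3, Ncl, Wdr43 and Dkc1) 3 fell, with a median difference of -0.33, and of the 37 measured genes that held none 1 fell, with a median of -0.14. Of 9 snoRNAs bright enough to be tested 4 fell and 0 rose in limma, with a median of -0.42.

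The 3 hosts that fell hold 12 of the listed snoRNA genes, of which 5 were tested and 7 had no probe set of their own and are not analysed here. Of the 5, 4 fell. Within Nop58, Snord11 had 9.41 and 9.35 after anti-DR3, against 10.29 and 10.14 after control antibody, and fell by 0.83 ± 0.090 (limma adjusted p = 0.0114). Snord70, also in Nop58, fell by 0.42 ± 0.080 (limma adjusted p = 0.0415). Snord110 in Nop56 had 11.67 and 11.51 after anti-DR3, against 12.20 and 12.13 after control antibody, and fell by 0.58 ± 0.092 (limma adjusted p = 0.0282). Snord69 in Gnl3 fell by 0.65 ± 0.13 (limma adjusted p = 0.0458), with 10.77 and 10.54 after anti-DR3, against 11.44 and 11.16. Snord19 in Gnl3, named after its value was seen, differed by -0.50 ± 0.13 without overlap (limma adjusted p = 0.0766). Of the 4 snoRNAs tested within Ncl and Wdr43, 0 passed in limma and 1 (Snord92, -0.38) had an unadjusted p under 0.05. Of 70 snoRNA genes tested on the whole array 52.9% were called lower, so the 4 of 9 over all hosts are no more than that share, and the difference between hosts that fell and other hosts was not tested. Of the 4, limma kept 1 (Snord11, adjusted p = 0.036) when control antibody replicate 2 was dropped, and 0 when any other array was.

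**Figure D3:**
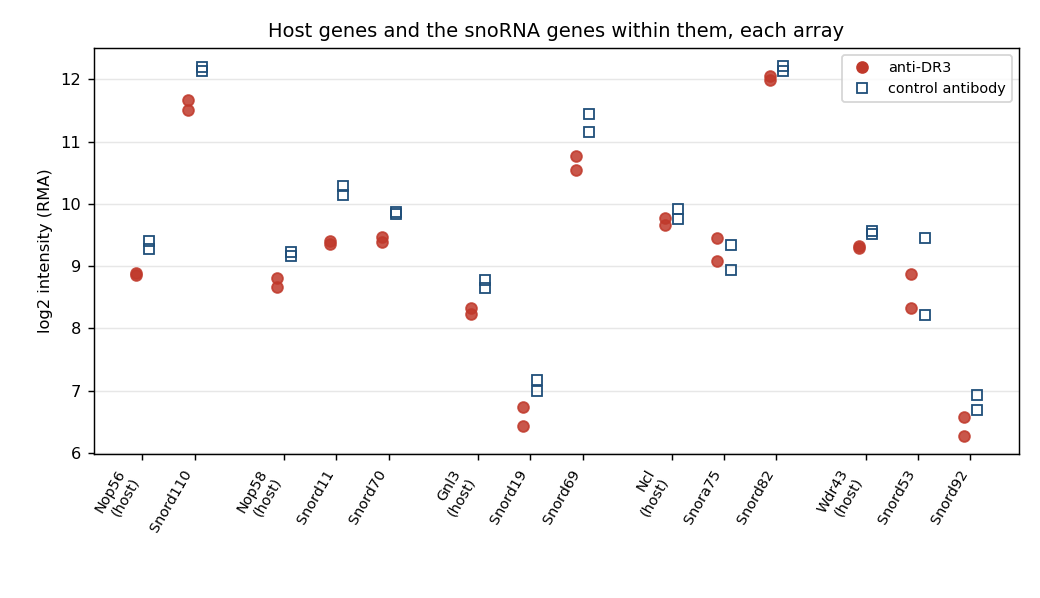
Log2 intensity (vertical axis) of 5 host genes and the 9 tested snoRNA genes within them, on the 2 anti-DR3 arrays (filled red circles) and the 2 control antibody arrays (open blue squares). Nop56, Nop58 and Gnl3 and the 5 snoRNAs within them have both circles below both squares. So do Wdr43, Snord92 within it and Snord82 in Ncl, while the groups overlap for Ncl, Snora75 in Ncl and Snord53 in Wdr43.

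Other genes of the same pathway were read from wider lists of 166 symbols, some of them older names of one gene, of which 139 were tested. In these 3 fell and 0 rose in limma (1.47% of all genes were called lower and 4.49% higher), and the median was -0.04. At an unadjusted p under 0.05, 18 (12.95%) were lower and 6 higher, where 9.57% and 16.6% of all genes were. The 3 act on the large subunit or the exosome. Mdn1, the giant ATPase that strips factors from the large subunit precursor, had 7.58 and 7.61 after anti-DR3, against 8.41 and 8.37 after control antibody. It fell by 0.80 ± 0.078, to 57.6% of the control level (limma adjusted p = 0.0104), a larger fall than that of any of the 43 genes.

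Ppan, a large subunit factor, had 7.16 and 6.98 after anti-DR3, against 7.70 and 7.58, and fell by 0.57 ± 0.098 (limma adjusted p = 0.033). The mean of its 2 probe sets gave -0.31 (limma adjusted p = 0.0803). Exosc2, a cap subunit of the RNA exosome, fell by 0.41 ± 0.081 (limma adjusted p = 0.0451). Without each array in turn limma called 0 of these genes, except for Mdn1 without control antibody replicate 2 (adjusted p = 0.0369).

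By list, 16 other polymerase I genes, 45 small subunit factors, 45 large subunit factors, 13 snoRNP assembly factors and 21 exosome and nuclease genes had medians of 0.03, -0.02, -0.06, 0.04 and -0.05. In the polymerase I, small subunit and assembly lists 0 passed in limma. There 2, 5 and 0 were lower and 1, 1 and 1 higher at an unadjusted p under 0.05, against 9.57% and 16.6% of all genes. The strongest of each were Taf1d of the initiation complex (-0.37, adjusted p = 0.0831), Tsr2, a chaperone of a ribosomal protein (-0.29, adjusted p = 0.0874), and Wrap53, which brings H/ACA RNAs to Cajal bodies (0.25, adjusted p = 0.173). Taf1d has 11 probe sets, whose mean gave -0.12 (adjusted p = 0.39). Rpph1, the RNA of ribonuclease P, had 11.58 and 11.55 after anti-DR3, against 12.11 and 12.03 after control antibody. It fell by 0.51 ± 0.080 (limma adjusted p = 0.0278), and not past the threshold without any single array (adjusted p from 0.0619 to 0.171).

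Cytosolic ribosomal protein genes, the structural parts that these factors assemble, had a median of -0.03 over 56 genes tested. In limma 0 passed, with 5 lower (8.93%) and 3 higher at an unadjusted p under 0.05, against 9.57% and 16.6% of all genes. Of the list 51.8% had a difference below 0, against 81.0% of the 42 measured members other than Myc. Of 78 symbols listed, 20 had no probe set of their own and 2 were dim. Some of the tested genes read near the array medians (5.33 to 5.39), such as Rplp2 at 5.30, Rps16 at 5.45 and Rpl30 at 5.50, where the list median was 9.76. These 3 genes differed by -0.37, -0.23 and 0.02. The contrast with the members was not recomputed without such dim probe sets. Read at the brightest probe set of each gene, the largest in the list was Rps20 at -0.69 ± 0.15 (limma adjusted p = 0.0561). The mean of its 2 probe sets gave -0.38 (limma adjusted p = 0.0988), smaller in size than Rpl17 at 0.56, and leaving out an array moved Rps20 from -0.86 to -0.52.

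**Figure D4:**
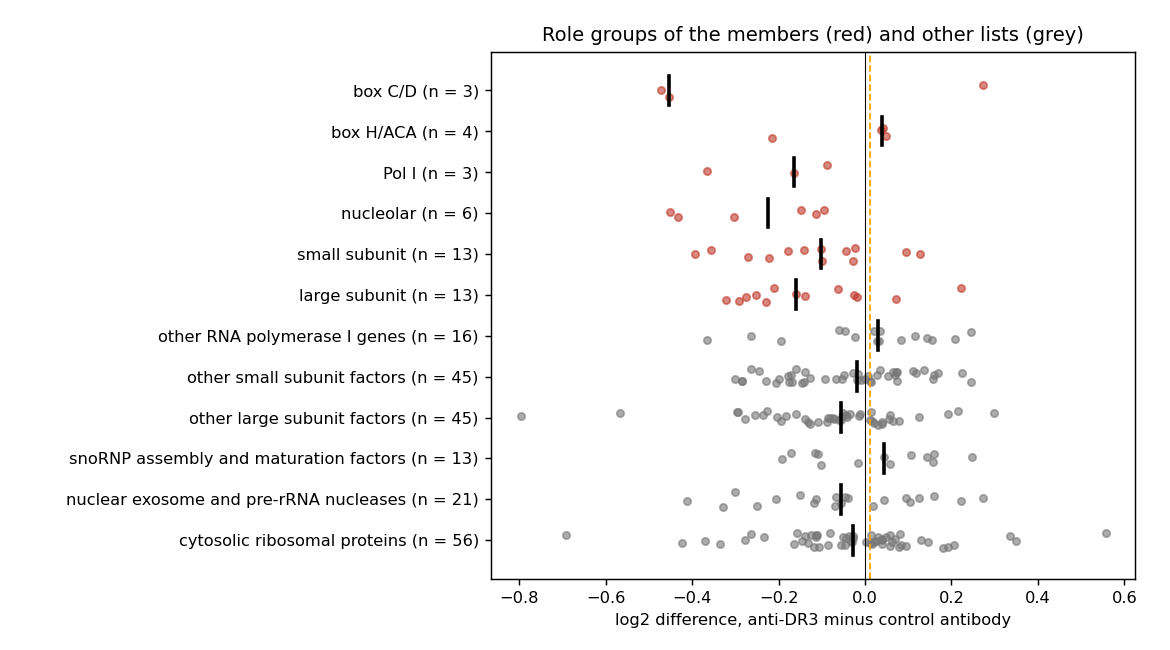
Log2 difference, anti-DR3 minus control antibody (horizontal axis), of each gene in the 6 role groups described here (red) and in 6 other lists (grey). Points are genes, spread vertically for legibility, black bars are list medians and the dashed line is the median of all genes tested. Red medians run from -0.45 (box C/D) to 0.04 (box H/ACA), and grey medians from -0.06 to 0.04.

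Some facts of the whole arrays stand beside these results. Robust multi-array average normalization aligns the distributions of the arrays, so a change in total RNA or ribosome content per cell would not show, and in sorted cell pools fewer cells of a kind and less RNA per cell cannot be told apart. Over all genes 544 were called higher and 178 lower, or 348 and 243 with arrays aligned at the median of tested genes. Genes of mitosis moved the other way: 8 of 11 tested rose and 0 fell, Ccna2, Nusap1 and Ccnb2 among them, and Ccna2 and Nusap1 passed the filter only through the anti-DR3 arrays, where they are high. Mki67, the proliferation marker, had 9.38 and 9.39 after anti-DR3, against 7.50 and 7.71 after control antibody, a rise of 1.78 ± 0.099 (limma adjusted p = 0.00606). That call ended without anti-DR3 replicate 2 (adjusted p = 0.0621). The summed intensity of the list was 2085 and 2050 after anti-DR3, against 777 and 858 after control antibody. Their part in the lower levels of the biogenesis genes was not tested.

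The Treg label was checked with Foxp3, at 11.93 and 11.90 after anti-DR3, against 11.89 and 11.81 after control antibody, and all 8 Treg markers passed the filter. Ikzf2 rose by 0.58 and Il2ra fell by 0.49. Of 9 B cell markers 5 were tested and 3 rose (Ighm, H2-Aa and H2-Ab1), while Cd79a, Ms4a1 and Pax5 were dim. The other tested ones, Cd79b and Cd22, differed by 0.18 and -0.04 with overlapping groups. The summed intensity of the B cell markers was 4423 and 4611 after anti-DR3, against 2884 and 3103 after control antibody. Most of that sum is Ighm, at log2 11.96 and 12.04 after anti-DR3, against 11.31 and 11.44. The mean of all Ighm probe sets gave a difference of 0.17 in place of 0.63. Of the plasma cell markers 1 of 4 tested rose (Irf4), with a summed intensity of 1226 and 1329 after anti-DR3, against 1017 and 1057 after control antibody, while Sdc1, Jchain and Tnfrsf17 were dim. Prdm1 differed by 0.70 without overlap (limma adjusted p = 0.0713). The other tested plasma cell markers, Xbp1 and Mzb1, differed by 0.03 and -0.05. Of the CD8 T cell markers the 1 tested rose (Cd8b1, by 0.49), while Cd8a was dim on all 4 arrays. Cd8b1 and Cd8a together summed to 224 and 240 after anti-DR3, against 173 and 168. The sums given here for B cell, plasma cell, CD8 T cell and monocyte markers include the dim genes. Of the monocyte markers 1 of 6 tested rose (Csf1r), with sums of 475 and 499 after anti-DR3, against 442 and 454, while Cd14 and Adgre1 were dim. Without overlap, Itgam differed by 0.47 (limma adjusted p = 0.0766) and Fcgr3 by -0.30 (limma adjusted p = 0.109). Itgam passed the filter only through the anti-DR3 arrays. The part of these markers in the results was not tested.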

How the data were processed

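Per the submitters' processing notes, the deposited intensities were made by robust multi-array average (RMA); software and build: not given in the sources used here. These deposited values ran on a linear scale, and log2 was taken of each. Per the labels, biotin-labelled total RNA was hybridised to Affymetrix arrays. Platform annotation gave 1 symbol for 23521 of 41345 probe sets, several for 1814 and none for 16010; the RefSeq table of GRCm38.p6 matched 23328 by Entrez ID and updated 0 symbols. Each gene was read at its brightest probe set, and genes brighter than the array's median probe set on at least 2 arrays were tested (12114, with 10066 left out as dim). The test was limma 3.58.1 under R 4.3.3 (lmFit, eBayes, two-sided, 2 residual and 3.94 prior degrees of freedom, Benjamini-Hochberg threshold 0.05). Precision is limited by the number of arrays.

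Members and lists were chosen with earlier results of these data known, and are described by counts and medians. All members are accounted for. Values on every array are given for the box C/D, box H/ACA and polymerase I genes and Myc, and in other role groups for genes past the threshold and the lowest and highest difference. Other lists name up to 4 genes past the threshold, or the strongest. SnoRNAs past the threshold are named. Utp20 and other genes given outside that rule were chosen after their values were seen. The fit was tested on simulated data. Alternatives changed the block, arrays, filter, scaling, prior, probe sets, threshold and the features tested. Promoters came from RefSeq and were searched with Python 3.11.15; figures were drawn with matplotlib 3.10.9. The design called for snoRNAs on the host's strand, which the gene table does not give.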

Additional observations from a re-analysis of the deposited data

How the results depend on the processing

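Of 819 comparisons of a named gene with its main value over 12 alternatives, 623 gave the same answer, 141 missed the threshold that the main value passed, 35 passed where it had not, and 20 changed sign, all 20 of them in genes not past the threshold. The 4 member calls (Nop56, Nop58, Gnl3 and Mybbp1a) held with each array centred (7 members lower), the mean of all probe sets (4), the stricter filter on dim genes (10 of 38 tested), a trended robust prior (11) and an adjusted p under 0.10 (10). They were lost with no filter on dim genes (0 members lower, 14 under an unadjusted p of 0.05, as were 3573 of all 22180 genes). With every bright probe set tested, 0 of all 21289 features were called in either direction. There 15 members had an unadjusted p under 0.05, as did 4121 of all features. The 4 calls were also lost with each array left out. Leaving out an array leaves 1 residual degree of freedom and lets the lone array vary like the other group. Wider pathway genes called lower were 0 with no filter and with every bright probe set, 7 under the stricter filter, 8 with the trended prior and at 0.10, and 0 to 1 with an array left out; 1 was called higher under the stricter filter, the trended prior and 0.10. Myc partner genes called were 1 under the same 3. Ribosomal protein genes called in either direction were 4, 5 and 5 there and 1 with centring. The shares of all genes called lower and higher were 4.2% and 12.1% under the stricter filter and 2.99% and 8.93% with the trended prior. They were 4.28% and 9.67% at 0.10, and 2.01% and 2.87% with centring. SnoRNAs within members called were 0 with no filter and with every bright probe set, and 0 to 1 with an array left out. The causes were not tested.

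The polymerase I median was -0.23 under the stricter filter, which tested fewer genes, and -0.22 with centring, and centring gave -0.29 for nucleolar and -0.16 for small subunit genes. With arrays left out the medians ran from -0.029 to 0.076 (box H/ACA), -0.32 to -0.12 (polymerase I), -0.27 to -0.20 (nucleolar) and -0.19 to -0.025 (small subunit). Centring turned Nhp2 to -0.019, Nop10 to -0.024 and Gar1 to -0.012. Differences that turned with an array left out ran from -0.39 to 0.27 for Rrs1, -0.026 to 0.11 for Nhp2, -0.038 to 0.11 for Nop10, -0.19 to 0.0024 for Ddx21, -0.12 to 0.069 for Nop16, -0.080 to 0.043 for Bop1, -0.10 to 0.20 for Gar1, -0.053 to 0.0070 for Utp4, -0.11 to 0.05 for Rrp9, -0.14 to 0.054 for Ltv1, -0.018 to 0.21 for Utp15 and -0.031 to 0.18 for Pes1. Members not past the threshold that kept their sign but moved by over 1.5 times ran from -0.32 to -0.0070 for Polr1b, -0.33 to -0.025 for Wdr75, -0.19 to -0.014 for Rrp12, -0.19 to -0.041 for Ncl, -0.24 to -0.058 for Npm1, -0.22 to -0.057 for Wdr12, -0.15 to -0.052 for Bms1, -0.12 to -0.052 for Rrn3, -0.20 to -0.081 for Heatr1, -0.33 to -0.13 for Nop2, -0.28 to -0.14 for Noc3l, -0.46 to -0.23 for Myc, 0.10 to 0.44 for Snu13, 0.14 to 0.31 for Ebna1bp2 and 0.075 to 0.18 for Dcaf13.

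No label says what a replicate number stands for. The replicate 1 minus 2 differences of both groups had a correlation of 0.051 over 12114 genes, and 2 pairs cannot show pairing. With the replicate block limma called 430 genes higher and 133 lower, 0 members lower (smallest adjusted p = 0.0533) and 2 ribosomal protein genes. Under an unadjusted p of 0.05 were 17 members, all lower, and 3230 of all 12114 genes in either direction.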
